A study of Homo sapiens with 18 samples.

Results

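In V16D cells, 1159 of 149858 merged H3K27me3 regions carried a peak in all 3 control libraries and in no library of the H19-overexpressing cells. These control-only regions were selected on measured values: the peaks of the 6 H3K27me3 lists were merged wherever they shared at least 1 base, and a region was kept by which lists it was called in. They make up 0.773% of the merged regions, against 576 regions (0.384%) called in all 3 V16D/H19 lists and in no V16D/CTL list. With lists of equal length the counts were 864 and 612. Without a V16D/H19 library, a region called only in V16D/H19 needed peaks in fewer lists, and the order turned. The counts were then 1807 and 2403, 1947 and 2003, and 1993 and 2029 without replicates 1, 2 and 3. Without a V16D/CTL library, a control-only region needed peaks in fewer lists. The counts were then 4196 and 847, 3129 and 1047, and 2972 and 1130 without replicates 1, 2 and 3. The counts of 1159 and 576 are fixed by the rule, so every H3K27me3 value given for the control-only regions is a description without a test. A subset in which every control peak had a −log10 q of at least 3 was to be compared with the rest. No control-only region met that condition (0 of 1159), so the tests on that subset could not be fitted and the regions below the threshold are all 1159.

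V16D is a castration-resistant prostate cancer line derived from LNCaP. V16D/CTL cells carried a control lentivector, and V16D/H19 cells carried a lentivector that overexpresses the long non-coding RNA H19 from a CMV promoter, in a backbone with GFP and puromycin resistance. Both groups were grown in RPMI1640 with serum and were profiled in 3 biological replicates by ChIP-seq for H3K4me3 and H3K27me3, beside an input for each replicate. All cells come from a single parent line, and whether transduced cells were pooled or cloned is not given in the sources used here. The comparison asks how the 2 marks are distributed along the genome when H19 is raised.

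H3K27me3 is laid down by PRC2, the Polycomb complex whose catalytic subunit is EZH2, and it marks genes kept silent, many of them developmental regulators. It spreads in broad, shallow domains, and peak callers often break such a domain into separate peaks. H3K4me3 forms sharp peaks at the starts of active or poised genes. Promoters with both marks are called bivalent. CG-rich promoters are those at which H3K4me3 and Polycomb are usually found in mammalian cells.

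Each H3K27me3 list contained 55060 to 72289 peaks and each H3K4me3 list 20048 to 21934. Peaks with −log10 q of at least 3 were more frequent in the V16D/CTL lists (9.15% to 11.1% of H3K27me3 peaks) than in the V16D/H19 lists (5.37% to 6.46%), without overlap, and the part of this in the calls of control-only regions was not tested. The line was checked by its markers: the luminal genes KLK2, KLK3, TMPRSS2, KRT8 and KRT18 had H3K4me3 at the promoter in all 6 libraries, and the immune genes PTPRC and CD3E in none. Of the stromal genes, COL1A1 had H3K4me3 in all 6 libraries together with H3K27me3 in all 6, and COL1A2 and DCN had no H3K4me3. Read depth was not analysed here, so no counting interval is given for a peak, and a missing peak is not an absent mark. The H3K27me3 lists start at a −log10 q of 1.005.

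The promoters under control-only regions differed widely in base composition. Sequences are those of RefSeq on GRCh38.p14, which held a promoter overlapping 17 of the 54 control-only regions that lay within 1 kb of a protein-coding start. The 250 bases before the start are shown for 5 genes whose whole window lies inside the region, picked after their values were seen to span the range of CG content and H3K4me3, with each CG in capitals. NKX2-8 (a homeobox factor; chr14:36582615-36582864, minus strand) and CHRNA3 (a nicotinic acetylcholine receptor subunit; chr15:78620997-78621246, minus strand) had H3K4me3 in all 6 libraries. FOXA3 (a forkhead factor of endoderm; chr19:45864076-45864325, plus strand) had it in 1 library. CIDEA (a lipid droplet protein; chr18:12254111-12254360, plus strand) and CCDC172 (a coiled-coil protein; chr10:116324198-116324447, plus strand) had none.
NKX2-8: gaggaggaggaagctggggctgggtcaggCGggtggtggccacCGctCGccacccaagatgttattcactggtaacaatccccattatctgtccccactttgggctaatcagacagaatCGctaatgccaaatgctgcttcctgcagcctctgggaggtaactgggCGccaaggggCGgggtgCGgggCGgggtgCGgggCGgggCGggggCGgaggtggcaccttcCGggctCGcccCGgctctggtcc
CHRNA3: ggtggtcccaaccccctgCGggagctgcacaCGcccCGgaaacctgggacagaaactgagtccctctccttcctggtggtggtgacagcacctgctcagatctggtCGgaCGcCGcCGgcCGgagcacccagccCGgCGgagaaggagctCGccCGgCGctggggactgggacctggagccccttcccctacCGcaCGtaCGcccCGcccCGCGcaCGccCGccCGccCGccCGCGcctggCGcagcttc
FOXA3: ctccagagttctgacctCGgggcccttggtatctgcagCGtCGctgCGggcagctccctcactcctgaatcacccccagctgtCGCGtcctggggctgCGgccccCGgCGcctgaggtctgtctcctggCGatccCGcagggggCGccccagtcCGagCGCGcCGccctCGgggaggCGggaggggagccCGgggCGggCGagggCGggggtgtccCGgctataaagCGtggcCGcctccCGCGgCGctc
CIDEA: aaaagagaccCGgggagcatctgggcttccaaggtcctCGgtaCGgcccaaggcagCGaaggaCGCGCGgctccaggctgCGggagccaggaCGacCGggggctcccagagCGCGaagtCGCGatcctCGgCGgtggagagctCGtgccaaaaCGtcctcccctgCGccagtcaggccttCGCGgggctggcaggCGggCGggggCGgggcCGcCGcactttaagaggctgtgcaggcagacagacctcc
CCDC172: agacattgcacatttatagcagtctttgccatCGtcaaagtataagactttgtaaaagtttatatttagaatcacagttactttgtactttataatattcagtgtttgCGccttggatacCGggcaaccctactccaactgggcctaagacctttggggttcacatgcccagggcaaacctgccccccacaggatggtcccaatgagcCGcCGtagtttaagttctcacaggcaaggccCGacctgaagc
Counted in the 250 bases, the number of CG dinucleotides was 15 for NKX2-8, 26 for CHRNA3, 28 for FOXA3, 26 for CIDEA and 6 for CCDC172. CIDEA and CHRNA3 thus held the same number, and only CHRNA3 carried H3K4me3.

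Over the 18 windows that overlapped a control-only region (RNF182 has a pair), the median was 16.5 CG, close to the 16 CG of all 22199 protein-coding promoter windows in the table. The 6 windows with H3K4me3 in all 6 libraries held 15 to 34 CG (median 23.5), and the 10 windows without H3K4me3 held 0 to 26 (median 5). The groups overlap, and the lowest count, 0, was at OR51L1, an olfactory receptor gene. The forkhead motif TGTTTAC and the steroid receptor core AGAACA, searched on both strands, were found in 0 of the 18 windows and in 2.45% and 9.84% of all windows. The absence says only that these letters are not in these windows.

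Control-only regions lay between all merged regions and the regions of all 6 lists in width, and their peaks were of ordinary median strength for their lists. Their median width was 1106 bases (range 393 to 4037), against 528 bases for all merged regions, most of them called in fewer lists, and 3729.5 bases for the 10934 regions called in all 6 lists, and 7 of the 1159 were wider than 3 kb. H19-only regions were of like size (median 1056.5 bases). Within the control libraries, the strongest peak of a control-only region had a median −log10 q of 1.89, 1.83 and 1.85, where all peaks of those lists had medians of 1.97, 1.85 and 1.85. The median fold over input of these peaks was 3.46, 3.35 and 3.32, against 3.53, 3.37 and 3.35 for all peaks. Peaks of control-only regions were therefore near the middle of their lists by median, and their range of fold was narrow, from 2.53 to 5.16. Strong peaks were less frequent among them. The strongest peak reached a −log10 q of 3 in 5.78%, 4.66% and 4.75% of control-only regions, against 11.1%, 9.15% and 9.29% of all peaks.

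The lowest −log10 q among the peaks of a control-only region had a median of 1.497 and a maximum of 2.95. It reached 2 in 63 regions (5.44%) and 2.5 in 4. At least 1 control peak reached 3 in 162 of the 1159, but in no region did every control peak reach it. Of the H19-only regions, 0 passed in every peak and 41 (7.12%) in at least 1. Of the regions of all 6 lists, which hold more peaks each, 59 (0.540%) passed in every peak and 67.6% in at least 1.

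**Figure D1:**
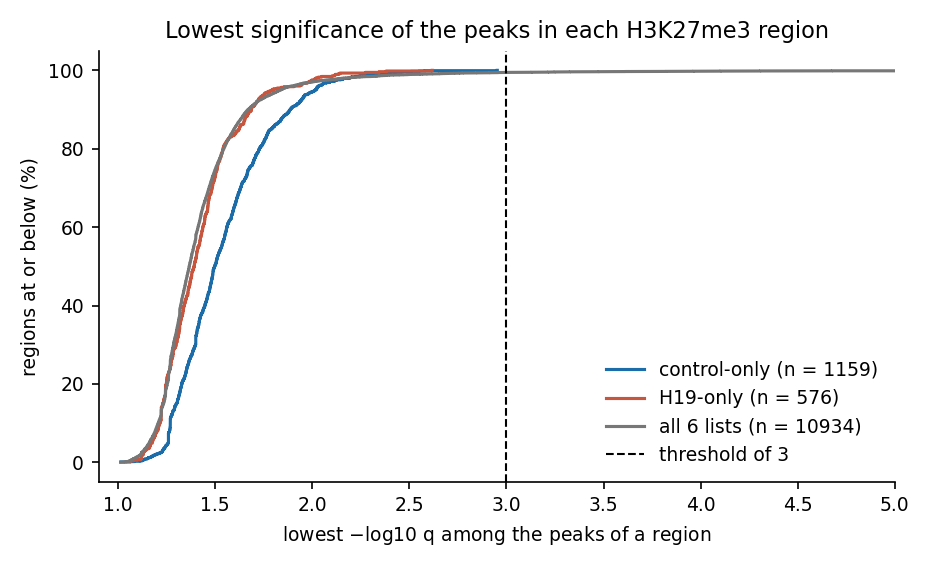
Cumulative share of H3K27me3 regions (vertical axis, percent) by the lowest −log10 q among their peaks (horizontal axis, cut at 5), for control-only, H19-only and all-6-list regions. The control-only curve lies to the right of the H19-only curve and ends at 2.95, short of the dashed threshold of 3.

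Values per library are those of the strongest peak of the region. Nearest below the threshold of 3, TTPA, the α-tocopherol transfer protein gene (chr8:63084979-63086611, over the promoter), had −log10 q of 2.95, 2.98 and 3.06 in the control libraries. TNS1, a focal adhesion protein gene (chr2:218008559-218010836), had 2.60, 2.58 and 2.59. The TNS1 region lay inside the gene, at a start of another transcript in the authors' annotation. A region far from genes (chr8:111039828-111040627, 1064057 bases from the KCNV1 start) had 3.31, 2.55 and 3.99. TTPA and TNS1 were even across the 3 control libraries, and the third region was not. TTPA and TNS1 also lay far from any V16D/H19 H3K27me3 peak, 22789 and 61785 bases away, whereas the third region had such a peak at 178 bases. TTPA and TNS1 carried H3K4me3 in all 6 libraries, and the third region in none.

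The next regions by lowest −log10 q were mostly outside promoters. They lay 838176 bases from the SLIT2 start (chr4:19412115-19413729), in TNNT3, a fast skeletal muscle troponin gene (chr11:1931652-1932688), near KHDRBS3 (chr8:135443136-135443799), in CAMTA1 (chr1:7110416-7111432), far from WDR72 (chr15:53298589-53299980), in GFRA1, a GDNF receptor (chr10:116206015-116206797), and near RCN1 (chr11:32033212-32034281). TNNT3 had −log10 q of 4.18, 3.87 and 2.47, with a V16D/H19 peak 280 bases away. CAMTA1 had 2.43, 4.65 and 2.44, so a single library stood out. None of these 7 carried H3K4me3.

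The 5 widest regions were in FBXL2 (an F-box protein gene; chr3:33297745-33301781, 4037 bases), near C14orf180 (3623 bases), far from TLE3 (3320 bases) and from DAAM1 (3289 bases), and in WDR41 (3188 bases). In FBXL2 the control peaks had −log10 q of 2.29, 1.93 and 1.83. All 5 had V16D/H19 peaks between 1114 and 3934 bases away, and none carried H3K4me3.

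Most control-only regions had a V16D/H19 H3K27me3 peak close by. The median gap to the nearest one was 730 bases, 439 regions (37.9%) had one within 500 bases, 664 (57.3%) within 1 kb and 985 (85.0%) within 5 kb. The H19-only regions gave 633 bases, and 62.2% of them had a V16D/CTL peak within 1 kb. Counted per library, 309, 359 and 367 control-only regions had a peak of V16D/H19 replicates 1, 2 and 3 within 1 kb. Regions of all 6 lists were further off, at a median of 18310 bases, and 28.4% of control-only regions had one within 5 kb. So a nearby peak in V16D/H19 was usually one not called in every library.

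**Figure D2:**
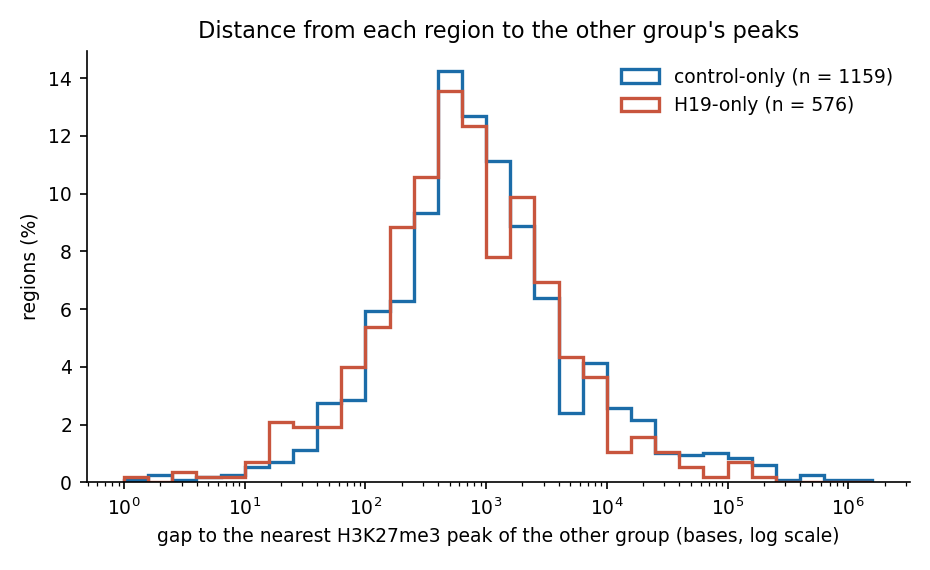
Share of regions (vertical axis, percent) by the gap to the nearest H3K27me3 peak of the other group (horizontal axis, bases, log scale), for control-only and H19-only regions. The medians are 730 and 633 bases, and 23 control-only and 5 H19-only regions lie beyond 100 kb.

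At the other end, 23 control-only regions were over 100 kb from any V16D/H19 peak. The farthest was at the promoter of SHC3, a neuronal signalling adaptor (chr9:89177063-89178831), 1087094 bases away, with −log10 q of 1.48, 2.13 and 2.09. GPM6B, a neuronal membrane glycoprotein gene on the X chromosome, held a pair of such regions side by side. The one over its promoter (chrX:13815678-13817150) had 2.56, 2.28 and 1.98 and lay 236917 bases away, and the one in the gene (chrX:13812626-13815581) had 1.76, 1.88 and 1.78. CASKIN1, a synaptic scaffold gene, was the third gene with a promoter among them (165024 bases). Of the 23, 3 carried H3K4me3 in all 6 libraries: CASKIN1, a region near ANP32A and a region near ZNF91, which lay 500028 bases from a V16D/H19 peak. Neither SHC3 nor GPM6B had H3K4me3.

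By position, 54 control-only regions (4.66%, 95% Wilson interval 3.59% to 6.03%, counting error only) lay within 1 kb of a protein-coding start. This share was 1.74% in H19-only regions (0.946% to 3.17%), 15.4% in regions of all 6 lists and 2.80% over all merged regions. A further 427 control-only regions lay inside a gene, and 678 lay outside genes, at a median of 97732 bases from the nearest start. Regions are not replicates of a condition, so these shares carry no test. The 4 sets also differ in median width (1106, 1056.5, 3729.5 and 528 bases in the same order), whose part in these shares was not tested. The 399 genes with a control-only region were long, with a median of 193 kb against 24.1 kb for all protein-coding genes and 51.2 kb for genes with any merged region. The median was 65.5 kb for the 2256 genes with a region of all 6 lists and 352 kb for the 197 genes with an H19-only region. Across these sets, the fewer genes a set held, the higher was its median. How far gene length by itself sets where regions fall was not tested.

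Several genes held more than a single control-only region: 72 genes had at least 2 and 18 at least 3. SPEG, a striated muscle kinase gene of 58.8 kb, had the most, with 4 control-only and 0 H19-only regions among its 18 merged regions. CCDC172 (3 of 17 merged regions), PCOLCE2 (3 of 21), ASB4 (3 of 20) and KCNC4 (3 of 24) were also fairly short genes, of 55.6 to 80.7 kb. The others with 3 were mostly long, among them PTPRN2 (217 merged regions), CACNA2D1 (181) and TENM3 (140). Of these 18 genes, only CADM2, KIRREL3, PKHD1L1 and SLC35F4 also held an H19-only region.

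Chromosome 3 held the most control-only regions, 120 (10.4%), and it held 8.52% of all merged regions. Chromosome 19 had the highest rate, 26 control-only regions or 1.09 per 100 merged regions, and the lowest H19-only rate among chromosomes with any (3 regions, 0.126 per 100). Over the other autosomes the control-only rate ran from 0.608 per 100 on chromosome 18 to 0.962 on chromosome 21.

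The gene lists took shares of the control-only regions that are given beside those of all merged regions. None of the 8 luminal genes held a control-only region, and none held a merged region of any kind. Of 18 neuroendocrine genes, 2 held a control-only region, inside the gene: RGS7, a regulator of G-protein signalling (chr1:241097491-241098930), and KCNB2, a delayed rectifier potassium channel (chr8:72675336-72676176). RGS7 had −log10 q of 2.19, 1.65 and 1.72 and KCNB2 1.40, 2.24 and 2.55, and V16D/H19 peaks lay 111 and 353 bases away. Regions of neuroendocrine genes made up 0.173% of control-only regions and 0.323% of all merged regions.

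Developmental transcription factors (243 genes) gave 7 control-only regions (0.604%, against 0.661% of all merged regions and 1.52% of regions of all 6 lists). They lay at NKX2-8, FOXA3, SALL1, MEIS2, TBX5, SOX5 and SOX7. NKX2-8 (chr14:36581597-36583702, the whole gene start) had −log10 q of 2.65, 2.07 and 2.81, and a V16D/H19 peak lay only 92 bases away. FOXA3 (chr19:45863708-45865337, also within 1 kb of the SYMPK start) had 3.60, 1.93 and 3.57, and no V16D/H19 peak lay within 69024 bases. MEIS2, a TALE homeobox gene, had 3.79, 2.80 and 1.51 inside the gene. The other 4 had a lowest value between 1.26 and 1.71.

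Ion channels and transmitter receptors (226 genes) gave 32 regions in 23 genes (2.76%, against 2.56% of all merged regions), the most of any list. CHRNA3 (chr15:78619679-78621360) and KCND3 (a transient potassium current channel; chr1:111990034-111991395) were the only 2 at a promoter. CHRNA3 had −log10 q of 2.10, 2.85 and 1.95, and KCND3 1.49, 1.49 and 2.13. Inside genes, CACNA2D1, a calcium channel subunit gene, had 3.10, 2.01 and 2.64 in the strongest of its 3 regions. Glutamate receptor genes with a region were GRIA1, GRIA4, GRIK4 (3 regions), GRIN2A and GRM4.

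Adhesion and axon guidance genes (187 genes) gave 22 regions in 16 genes (1.90%, against 2.32% of all merged regions and 3.47% of H19-only regions). PCDH15, a protocadherin of hair cells, had the strongest (2.22, 2.80 and 2.31) and a second region. SEMA3A, a repulsive guidance ligand, held a pair of adjacent regions (chr7:84475939-84477482 and chr7:84474643-84475548), of which the stronger had 3.00, 2.32 and 1.90. UNC5B, a netrin receptor, was the only gene of this list with a region at its promoter, and its nearest V16D/H19 peak was 44487 bases away. Zinc finger genes (509 genes) gave 5 regions, in ZNF536, ZNF469, ZNF423 (a pair) and ZNF521, or 0.431% against 0.327% of all merged regions.

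The 54 promoter regions fell into 24 with H3K4me3 in all 6 libraries, 25 with none and 5 in between. Those with H3K4me3 throughout and the highest H3K27me3 values were TTPA, CAMK2N1 (an inhibitor of CaM kinase II; −log10 q 2.34, 2.74 and 2.61), CAMK1D (a CaM kinase; 2.60, 2.24 and 2.68), SAMD14 (2.23, 2.20 and 2.49), NKX2-8, NFIL3 (a bZIP repressor; 2.04, 2.49 and 2.54), RNF182 (a ubiquitin ligase; 2.17, 2.01 and 2.34) and CHRNA3. Others were CHRD, the BMP antagonist chordin, LRP6, a WNT co-receptor, and IL17RD, an FGF signalling inhibitor. Those without H3K4me3 were of many kinds, among them CCDC172, GPM6B, SHC3, CIDEA, the retinoic acid binding protein gene CRABP2, the metallothionein gene MT1M, OR51L1, the keratin-associated protein genes KRTAP4-8 and KRTAP4-9, and CXCL8 (a neutrophil chemokine; 3.07, 1.79 and 3.36). CXCL8 and LAIR2, an immunoglobulin-like receptor gene (3.20, 1.56 and 3.39), shared a low value in V16D/CTL replicate 2.

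H3K4me3 was immunoprecipitated separately and its peaks had no part in the rule, so it could be tested. The peaks of both marks were called against the same input of each replicate, so the marks are not fully independent. The part of this shared input in the H3K4me3 calls and fold was not tested. H3K4me3 peaks overlapped 36, 37 and 38 control-only regions across the V16D/CTL libraries and 38, 36 and 36 across the V16D/H19 libraries, so the groups overlapped entirely. Their mean was 37 ± 1 regions in V16D/CTL against 36.7 ± 1.15 regions in V16D/H19 (SD, n = 3 each), a difference of −0.333 regions (two-sided exact permutation p = 1, where the smallest possible is 0.1). As a share of the 1159, the means were 3.19% ± 0.0863 and 3.16% ± 0.0996. Over the regions of all 6 lists it was 10.2% ± 0.118 for V16D/CTL and 11.7% ± 0.809 for V16D/H19 (SD, n = 3 each), and the groups did not overlap (exact permutation p = 0.1). Of the 576 H19-only regions, 7, 6 and 5 had H3K4me3 across the V16D/CTL libraries and 6, 7 and 6 across the V16D/H19 libraries.

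The difference between control-only and H19-only regions in the share with H3K4me3 was 2.15 ± 0.260 percentage points for V16D/CTL against 2.06 ± 0.173 points for V16D/H19 (SD, n = 3 each), a change of −0.0866 points (exact permutation p = 0.8). H3K4me3 was thus more frequent at control-only than at H19-only regions in each of the 6 libraries, and no change of that gap with H19 was detectable with 3 libraries a group. The sets also differ in promoter share (4.66% and 1.74%), whose part in this gap was not tested.

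**Figure D3:**
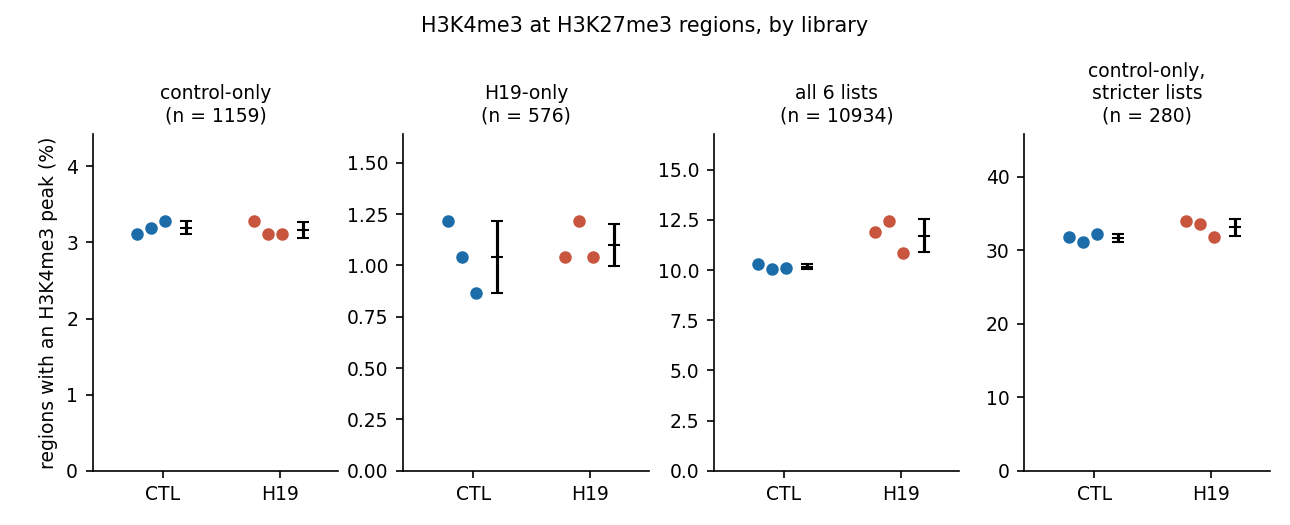
Share of regions with an H3K4me3 peak (vertical axes, percent, each from 0 but on a scale of its own) in each V16D/CTL (CTL) and V16D/H19 (H19) library, for 4 sets of regions. Points are libraries, and bars show the mean ± SD (n = 3). The control-only points lie between 3.11% and 3.28% in both groups, and the 2 groups separate only in regions of all 6 lists.

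Region by region, 1117 control-only regions had no H3K4me3 in any library, 32 had it in all 6 and 10 in some. No control-only region switched completely, that is, from all 3 libraries on one side to 0 on the other. Over all merged H3K27me3 regions, 72 (0.048%) did so towards V16D/H19 and 8 (0.00534%) towards V16D/CTL. The region nearest to such a switch was at PIK3CD, a PI3-kinase catalytic subunit gene, with H3K4me3 in 2 V16D/CTL libraries and in no V16D/H19 library. IRS4, an insulin receptor substrate gene, had it in 2 V16D/CTL and 3 V16D/H19 libraries. FOXA3 and MICB had it in 1 V16D/CTL library each.

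Where H3K4me3 was present throughout, at 32 regions, its median fold over input was 20.9, 24.7 and 22.5 across V16D/CTL and 19.5, 28.4 and 21.1 across V16D/H19. All 15811 H3K4me3 sites present in every library had medians from 35.8 to 41.2, so the median at these regions was the lower one in each library. The median log2 difference of V16D/H19 from V16D/CTL was −0.01 at these regions and 0.03 over all sites. The 3 V16D/H19 values lay above all 3 V16D/CTL values at 2 of the 32 regions (6.84% of all sites) and below them at 4 (4.63% of all sites). A single region cannot reach a p below 0.1 in this design.

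The regions with the higher H3K4me3 fold in V16D/H19 were DCBLD2 and one near GPR101. DCBLD2, a neuropilin-like receptor gene, had 37.6, 28.5 and 29.8 for V16D/CTL against 49.3, 51.3 and 39.0 for V16D/H19. The regions with the lower fold were CASKIN1, LRP6, UPP1 and one near LRCOL1. CASKIN1 had 39.6, 40.4 and 40.3 against 20.1, 26.9 and 13.7, and the region near LRCOL1 had 15.6, 13.9 and 14.3 against 9.06, 5.85 and 8.50. At UPP1, a uridine phosphorylase gene, the groups were 57.9, 37.8 and 37.8 against 21.7, 37.3 and 25.1 and nearly met. At NKX2-8 the fold was between 13.4 and 22.999 and at CHRNA3 between 16.95 and 33.2, with overlapping groups at both.

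Since no region passed the threshold of 3, a lower one of 2 was applied after the data were seen. The 63 regions whose control peaks all reached 2 were as wide as the other 1096 (medians 1110 and 1105.5 bases). They were at a promoter in 12.7% of cases (8 regions, Wilson interval 6.58% to 23.1%) against 4.197% (3.16% to 5.55%). H3K4me3 overlapped 9, 10 and 10 of the 63 across V16D/CTL against 10, 10 and 10 across V16D/H19, and 27, 27 and 28 against 28, 26 and 26 of the rest. The gap between the subsets was 12.9 ± 0.891 percentage points for V16D/CTL against 13.4 ± 0.105 for V16D/H19 (SD, n = 3 each, exact permutation p = 0.3). This change of 0.590 points was 0.076 without V16D/CTL replicate 1, 1.12 with H3K4me3 peaks of −log10 q of at least 10 and 2.12 with those within 1 kb counted. So the more strongly called regions more often carried H3K4me3 in all 6 libraries, with no detectable change between the groups. The subsets also differ in promoter share, whose part in this gap was not tested. Regions are not replicates, so the intervals cover counting error only. The median gap to a V16D/H19 H3K27me3 peak was 636 bases in the 63 regions and 746.5 in the rest.

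Filtering the lists to peaks with −log10 q of at least 3 before merging, whose H3K4me3 comparison was also added after the data were seen, gave another set, 280 control-only regions of 16418 (1.71%), beside 4 H19-only regions. Of these 280, 0 shared a base with any of the 1159, an outcome that the rules nearly fix. Each of the 280 has a peak of at least 3 in all 3 V16D/CTL lists, and no control-only region had every control peak at 3. In the full lists, 259 of the 280 had a peak in all 3 V16D/H19 libraries, 19 in 2 and 2 in 1. The peaks were weaker there, with median highest −log10 q of 3.59, 3.66 and 3.66 across V16D/CTL against 2.40, 2.45 and 2.47 across V16D/H19, values that the filter itself keeps on either side of 3. Peaks covered a median of 74.9%, 84.3% and 86.0% of the region across V16D/CTL against 56.1%, 60.3% and 62.5% across V16D/H19. The borders of these regions were drawn by V16D/CTL peaks alone, so the higher V16D/CTL coverage is built into the rule. Such regions were 3739 bases wide (median), 33.6% were at a promoter, and 31.7% ± 0.546 of them carried H3K4me3 for V16D/CTL against 33.1% ± 1.15 for V16D/H19 (SD, n = 3 each, exact permutation p = 0.3). That is 4 regions more for V16D/H19, and the difference was 10.3 regions, without overlap, with H3K4me3 peaks of −log10 q of at least 10 (exact permutation p = 0.1) and 5.83 regions without V16D/H19 replicate 3 (exact permutation p = 0.1, the smallest possible in both). Of the 280, 261 lay inside a region of all 6 full lists.

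The strongest of the 280 was at SNTB1, a syntrophin gene (chr8:120808101-120814752), with −log10 q of 6.54, 6.03 and 7.33 for V16D/CTL against 2.64, 2.78 and 2.99 for V16D/H19. COL5A1, a fibrillar collagen gene (chr9:134641836-134643960), had 5.06, 6.37 and 6.81 against 1.68, 1.58 and 2.70. NKX1-2, a homeobox gene, had 4.67, 5.04 and 6.79 against 2.96, 2.90 and 2.87. ADARB2, a brain RNA editing enzyme homologue, had 7.53, 5.02 and 5.40 against 1.66 and 2.15, with no peak in V16D/H19 replicate 3. The only neuroendocrine gene among them was MYT1, a neural zinc finger factor, with 3.20, 3.09 and 3.11 against 2.04, 1.89 and 1.39 inside the gene.

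**Figure D4:**
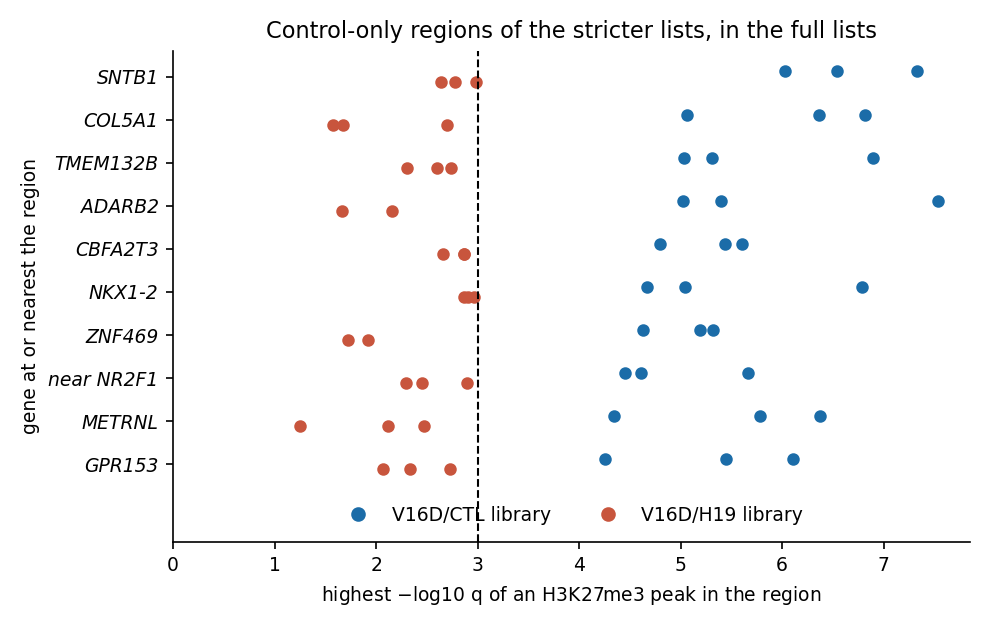
Highest −log10 q of an H3K27me3 peak (horizontal axis) in each library of the full lists, at the 10 control-only regions of the filtered lists with the highest lowest value (vertical axis, named by the gene at or nearest the region). V16D/H19 points lie at 2.99 or lower and V16D/CTL points between 4.26 and 7.53, a separation fixed by the filter at 3 (dashed), and ADARB2 and ZNF469 lack a peak in 1 V16D/H19 library each.

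The authors' table of differential H3K27me3 sites, made from the same libraries and so not independent of the rule, lists a site over 61 control-only regions (5.26%). The concentration, which is each group's mean normalised count on a log2 scale as the authors give it, was lower in V16D/H19 at each of the 61. Over all merged regions, 1.41% lay on a listed site with the lower V16D/H19 concentration, and over regions of all 6 lists 9.19%. The H19-only regions had a like share in the other direction. A listed site lay over 30 of the 576 (5.21%), with the higher V16D/H19 concentration at 29. These sets differ in median width, whose part in the shares was not tested. All other control-only regions lay on no listed site. Listed sites were often much wider than the control-only region: the region filled at least 50% of the site in 23 cases and less in 38, where the median site was 10300.5 bases wide. Median concentrations were 5.23 for V16D/CTL and 4.04 for V16D/H19 at the 23, and 6.93 and 6.31 at the 38.

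Among the 23, TNS1 had concentrations of 5.02 and 3.56 in V16D/CTL and V16D/H19, NKX2-8 5.18 and 3.86, FBXL2 5.90 and 4.34, GPM6B (the region inside the gene) 5.11 and 3.85, LMO2, a haematopoietic LIM factor, 5.22 and 4.06, and the region near PGLYRP3 5.06 and 3.51. In the listed sites at BHLHE23 and RBFOX3, by contrast, control-only regions filled 2.64% and 4.15% of sites with 9.52 and 9.11 or 9.43 and 8.96.

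**Figure D5:**
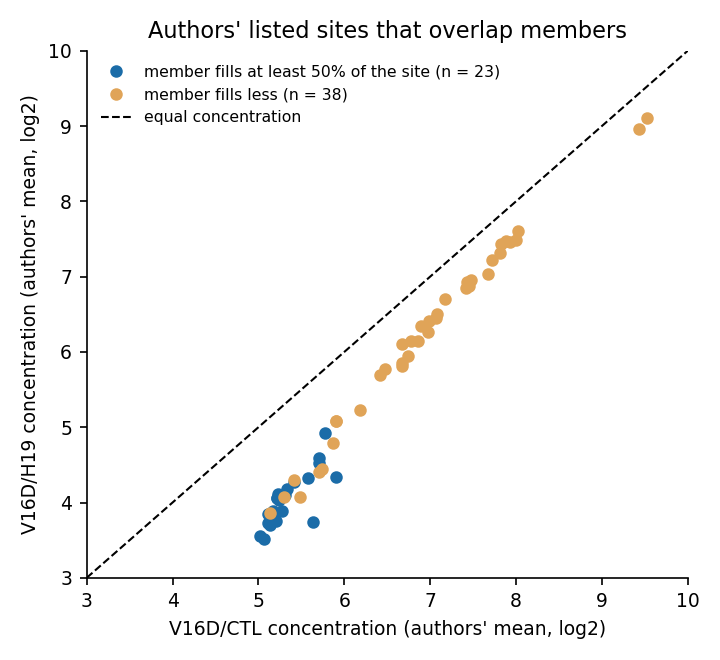
Concentration in V16D/H19 (vertical axis) against V16D/CTL (horizontal axis) at the authors' listed H3K27me3 sites that overlap control-only regions (log2, the authors' group means, without error bars since no values per library are given). The points for all 61 regions lie below the dashed line of equal concentration, and 2 regions share a site and so a point. The sites that a region fills by at least 50% (23 points) lie at the low end, from 5.02 to 5.90 in V16D/CTL.

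The authors' H3K4me3 table lists sites over 5 control-only regions (0.431%, against 0.276% of all merged regions). Over all merged regions, 0.184% lay on a site with the higher V16D/H19 concentration and 0.0928% on one with the lower, so higher was also the more frequent direction there. Among the control-only regions it was higher at 4, all promoters: CAMK2N1 (7.56 for V16D/CTL and 8.01 for V16D/H19), BMERB1 (7.64 and 8.15), ERC2, a presynaptic active zone protein gene (8.09 and 8.59), and CADPS2, a vesicle priming gene (8.27 and 8.66). It was lower near LRCOL1 (5.23 and 4.15). By the fold over input of single libraries, the groups overlapped at each of the 4 promoters. Of the regions above whose fold did not overlap between the groups, only the one near LRCOL1 lay on a listed H3K4me3 site. BMERB1 was the only promoter of the 4 also on a listed H3K27me3 site, with 5.58 and 4.32.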

How the data were processed

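Peak lists of H3K4me3 and H3K27me3 ChIP-seq were analysed for 3 V16D/CTL and 3 V16D/H19 replicates (12 lists); the 6 inputs entered only through the authors' peak calling. Per the labels and the study's methods, the authors used MACS2 with default parameters on each library, for narrow H3K4me3 and broad H3K27me3 peaks. The input of each replicate was the control for both marks. The build is hg38 in the submitters' processing notes, and the study's depth table names bowtie as the aligner. For each peak the deposited lists hold the fold over input as a linear ratio, beside −log10 p-value and −log10 q-value; these come from one library each and depend on its depth. The authors' deposited DiffBind tables, annotated with ChIPseeker, hold log2 concentrations per group, which were used as the authors' means, and a fold, p-value and FDR of the authors' own comparison, which were not; they list only sites with an FDR of up to 0.05.

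Peaks were merged with Python 3.11.15 (numpy 2.4.6, scipy 1.17.1) where they shared at least 1 base, and tested on simulated lists. Genes and starts were RefSeq on GRCh38.p14. A start, from the promoter table or the gene's 5′ end, was available for 19675 of 20037 protein-coding genes (98.2%), with strand from GENCODE by symbol where the promoter table lacked it. A promoter was within 1 kb of a start. A gene was given to a region that overlapped the gene or its promoter. H3K4me3 counts per library were compared by a two-sided exact permutation test over 20 assignments (smallest p 0.1). No sequence was read by coordinates, since no GRCh38 genome was used here.

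The regions, gene lists and comparisons were chosen with earlier results of these data known. Named regions were the 10 with the highest lowest −log10 q, the 5 widest, those nearest below the threshold of 3, those at listed genes and those with a complete H3K4me3 switch (none); the parts of the rule on regions above the threshold of 3 found no region; other promoters and genes, and the split at 2, were named after their values were seen. Of the 19 neuroendocrine genes, 18 matched a symbol.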

Additional observations from a re-analysis of the deposited data

How the results depend on the processing

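The number of control-only regions was 1159. It was 864 with lists of equal length, 779 with peaks up to 1 kb apart merged and 1316 when V16D/H19 peaks over less than 10% of a region were ignored. It was 716 when only peaks with −log10 q of at least 2 were merged and 280 with at least 3. Leaving out any of the 6 libraries raised it, to between 1807 (without V16D/H19 replicate 1) and 4196 (without V16D/CTL replicate 1), since a region then has fewer lists to satisfy; it was 3129 and 2972 without V16D/CTL replicates 2 and 3, and 1947 and 1993 without V16D/H19 replicates 2 and 3. Regions with −log10 q of at least 3 in every control peak, 0 in the full lists, numbered 10 when only peaks of at least 2 were merged, 280 with peaks of at least 3, and 0 to 10 with a library left out. H19-only regions, 576 at first, numbered 412 with peaks up to 1 kb apart merged, 96 and 4 with peaks of at least 2 and 3, and 847 to 1130 with a V16D/CTL library left out. The promoter share was 9.23% within 5 kb. The median width was 607 bases as the mean of the 3 control peaks and 1183 bases with lists of equal length.

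The change in H3K4me3 at control-only regions (-0.333 regions) was 1.33 when peaks within 1 kb counted (exact permutation p = 0.5) and ran from -1 to 0.167 with a library left out (0.167 without V16D/CTL replicate 3). The change in the gap between control-only and H19-only regions (-0.0866 points) was 0.0579 with H3K4me3 peaks of −log10 q of at least 10 (exact permutation p = 0.7) and ran from -0.217 to 0.0433 with a library left out (0.0433 without V16D/CTL replicate 3). Same-numbered libraries of the groups were not correlated in their deviations from the group means (r from -0.000849 to 0.026 for H3K4me3, each below 0.1), so the numbers were not taken to pair samples. With a replicate block the changes were the same, -0.333 and -0.0866 (exact sign-flip p = 1 for both, smallest possible 0.25), 0.590 points for the split at 2 (p = 0.25) and 4 for the regions of the filtered lists (p = 0.5), and no alternative could have passed 0.05. The cause of these shifts was not tested. With a library left out, the change in the split at 2 ran from 0.076 to 0.870 points and that at the regions of the filtered lists from 2.83 to 5.83. The tests on the subset above 3 could not be fitted, since it is empty, and those on the remaining regions are those on all 1159.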
